A study of Mus musculus with 60 samples.

Results

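Cumulus cell nuclear transfer (NTC) embryos at the 4-cell stage were compared with in vivo 4-cell embryos, across all genes of the deposited expression table. NTC embryos carry the nucleus of a cumulus cell, a somatic cell that surrounds the oocyte, in an oocyte whose own spindle was removed. The members were the 3 NTC and the 3 in vivo 4-cell samples named in the column headers, 6 of 60 samples, and each sample was a single embryo. Of the 27238 genes of the table, 18412 were above 0 in at least 1 of the 6 samples. The 11457 genes with a mean RPKM (reads on a gene, scaled by its exon length and by the depth of the library) of at least 0.5 over the 6 samples were tested.

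In vivo embryos came from superovulated C57BL/6 females and DBA2 males. NTC embryos were made from nuclei of cumulus cells, taken from around the oocytes without culture, and enucleated MII oocytes, both from BDF1 females (the F1 of C57BL/6 and DBA2), so that the study names the background of all embryos as BDF1. They were activated in medium with SrCl2, cytochalasin B and Scriptaid, an inhibitor of histone deacetylases, and were then grown in vitro in G1 medium. The NTM embryos used below were made in the same manner with nuclei of cultured and serum-starved mouse embryonic fibroblasts (MEFs). Embryos were selected by their morphology. A difference between NTC and in vivo embryos can therefore have several sources. They include the donor nucleus, the strain of the oocyte, enucleation and injection, the activation, Scriptaid, the culture and the sex of the nucleus. These cannot be told apart in this design. Nor can they be told apart from the making of the libraries, since no source used here says which libraries were prepared together. The labels place the embryos of a stage in at least 3 separate experiments without saying which embryo belongs to which. RPKM values are shares of a library, so that more RNA from some genes and less RNA from all others cannot be told apart, nor can fewer cells and less RNA per cell. The study's methods mention spike-in RNAs, which are not used here.

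During mouse development the oocyte's stored RNAs are degraded and the embryo's own genome is switched on, with the main wave in the 2-cell embryo. By the 4-cell stage most transcripts of a normal embryo are products of its own nuclei, and genes for ribosomes, splicing and energy metabolism are among those with rising levels. In a nuclear transfer embryo the oocyte cytoplasm has to silence the programme of the donor nucleus and start this embryonic programme from somatic chromatin. The metallothioneins Mt1 and Mt2, small proteins that bind zinc and other metals, and Dppa3 (Stella), a maternal and embryonic factor that protects DNA methylation, are known as genes of the early embryo.

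Among the genes ranked for naming, which left out provisional symbols and pseudogenes, the largest difference was that of Mt1 (ENSMUSG00000031765, chromosome 8, 94179082 to 94180327, plus strand, GRCm38). Its RPKM was 13732, 16078 and 12698.5 in in vivo replicates 1 to 3 and 49.1, 12.7 and 34.1 in NTC replicates 1 to 3. The groups did not overlap, which the ranking required and which held for 5031 of the 11457 tested genes (43.9%). None of the other 57 samples of the series, 3 of them cumulus cells, had more than 173 RPKM of Mt1. The difference was -8.93 on the log2(RPKM + 1) scale (SE 0.42, limma, adjusted p = 4.3e-06). Mt2, its neighbour on the chromosome (ENSMUSG00000031762; 94172664 to 94173568, plus strand), had 866, 968 and 753 RPKM in vivo and 1.51, 1.52 and 20.2 RPKM in NTC embryos. It too was lower in every NTC sample (log2 difference -7.39, SE 0.74, adjusted p = 0.00018). Both genes are switched on through metal response elements, short promoter sites bound by the zinc-sensing factor Mtf1. The promoter sequences are shown because this pair of neighbouring genes moved together. Each runs from 250 bases before to 50 bases after the RefSeq start (GRCm38.p6, 5′ to 3′). Matches on either strand to TGCACNC, a single form of the element's core, are in capitals. Other forms of the core were neither marked nor counted.
Mt1, chr8:94178839-94179138, plus strand: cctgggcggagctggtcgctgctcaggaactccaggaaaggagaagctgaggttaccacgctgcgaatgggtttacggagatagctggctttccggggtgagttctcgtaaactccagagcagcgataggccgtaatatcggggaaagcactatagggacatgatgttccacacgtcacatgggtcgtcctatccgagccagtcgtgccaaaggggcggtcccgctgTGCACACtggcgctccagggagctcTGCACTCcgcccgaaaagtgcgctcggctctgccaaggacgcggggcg
Mt2, chr8:94172368-94172667, plus strand: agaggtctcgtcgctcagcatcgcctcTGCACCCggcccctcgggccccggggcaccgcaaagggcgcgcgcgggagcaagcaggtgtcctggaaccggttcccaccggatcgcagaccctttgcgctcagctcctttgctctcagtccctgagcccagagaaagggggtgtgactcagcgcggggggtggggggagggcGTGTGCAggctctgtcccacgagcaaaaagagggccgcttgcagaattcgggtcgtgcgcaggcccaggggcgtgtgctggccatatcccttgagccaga
Each window held 2 matches to TGCACNC. Of 32851 promoters of the same length, 12.6% held at least 1 match and 1.58% held 2 or more. Mtf1 itself, which was added to the named genes after its values had been seen, had 7.89, 6.93 and 8.19 RPKM in vivo and 2.14, 1.25 and 1.41 RPKM in NTC embryos (log2 difference -1.75, SE 0.41, adjusted p = 0.013). In NTC 2-cell embryos Mtf1 was at 3.59, 8.28 and 8.23 RPKM and Mt1 at 27.7, 0.62 and 7.70 RPKM. In vivo 8-cell embryos had 0.573, 0.363 and 1.39 RPKM of Mtf1 and 42.2, 41.7 and 53.3 RPKM of Mt1. A part of Mtf1 in the levels of Mt1 and Mt2 was not tested.

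The groups also differed in the make-up of their reads, which bears on every result that follows. Reads on mitochondrial genes made up 8.87%, 6.88% and 5.68% of all reads on genes in the in vivo embryos and 33.0%, 34.7% and 31.6% in the NTC embryos. The difference was 26.0 percentage points (exact permutation test, two-sided, p = 0.1, the smallest that 3 against 3 samples can give). At the 8-cell stage the groups had 37.6% ± 4.6 (NTC) and 37.6% ± 6.69 (in vivo; SD, n = 3), and at the 2-cell stage 12.9% ± 5.38 and 10.4% ± 2.78. The in vivo 4-cell share was thus in the range of the earlier stages, and the NTC share in that of the later ones. Reads on coding transcripts under 1000 bases made up 11.4%, 9.35% and 9.85% of coding reads in the in vivo 4-cell embryos and 4.41%, 4.47% and 4.51% in the NTC embryos. In the other 57 samples this share lay between 1.58% and 8.06%, so the in vivo 4-cell embryos were above all of them. The 6 libraries held 9543819 to 16323451 reads on genes, with 13576 to 13932 genes above 0 in vivo and 10824 to 11929 in NTC embryos. Thinning the reads to the depth of the shallowest library left 3176 called genes, against 3189 at full depth.

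**Figure D1:**
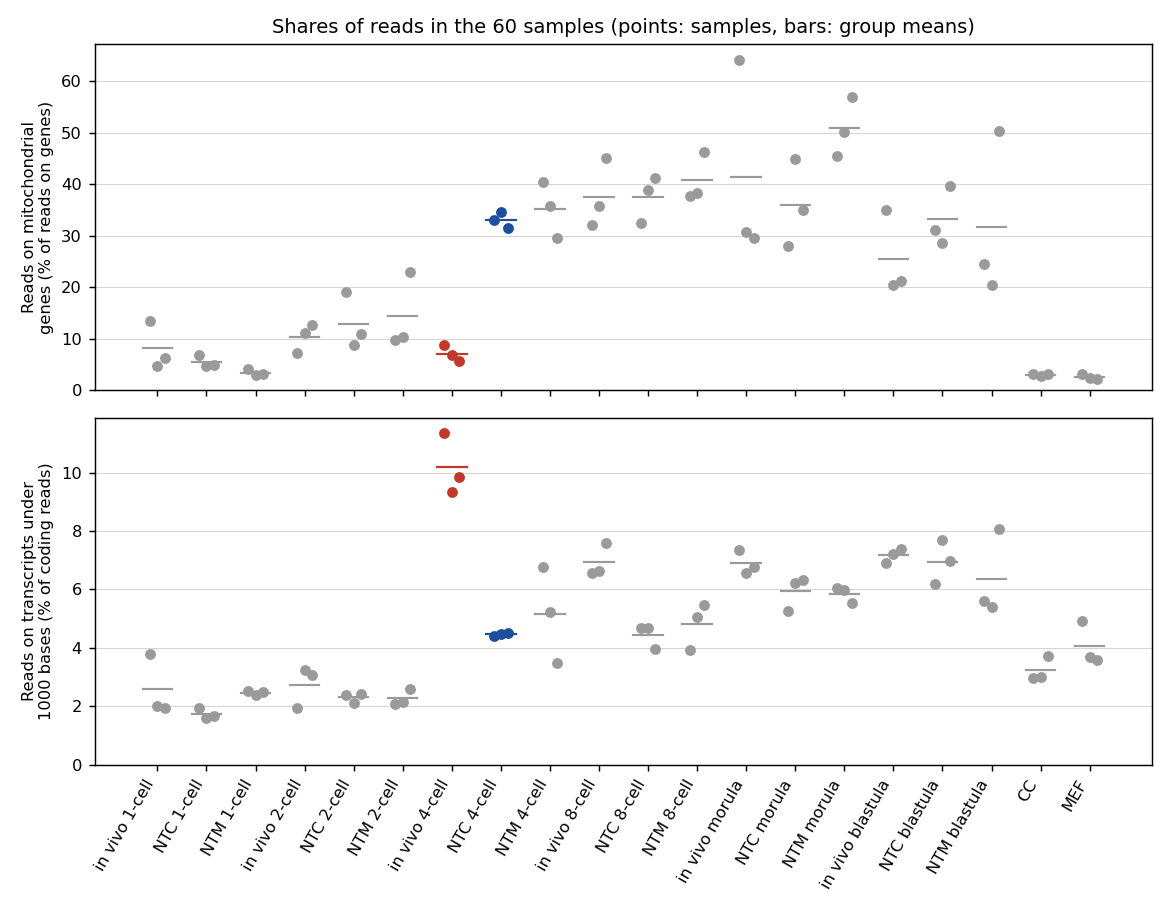
Share of reads on mitochondrial genes (upper panel, percent of reads on genes) and on coding transcripts under 1000 bases (lower panel, percent of coding reads) in the 60 samples by group, with points for samples and bars for group means. The in vivo 4-cell embryos (red) sit at 5.68% to 8.87% in the upper panel, below the NTC 4-cell embryos (blue) at 31.6% to 34.7%, and at 9.35% to 11.4% in the lower panel, above every other sample.

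At an adjusted p under 0.05 and a log2 difference of at least 1 in size, 3189 of the 11457 genes (27.8%) were called. Of these, 848 (7.4%) were higher and 2341 (20.4%) were lower in NTC embryos, and the median difference of all tested genes was -0.39. The 6 values did not overlap between the groups for 5031 genes (43.9%). The balance of directions depended on the scale. Higher genes were 26.6% of the called genes in the deposited values. They were 41.7% after median-ratio scaling (1242 higher, 1733 lower), 41.5% among nuclear reads only (1231 higher, 1734 lower) and 47.3% after a correction for transcript length (1306 higher, 1454 lower). These settings moved the median of all genes to -0.03, -0.06 and 0.07, and values below are as deposited unless another scale is named. The count of called genes was 2101 without in vivo replicate 2. The genes that were higher numbered 558, 499 and 485 without in vivo replicate 1, 2 and 3, and 1019 without NTC replicate 1.

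**Figure D2:**
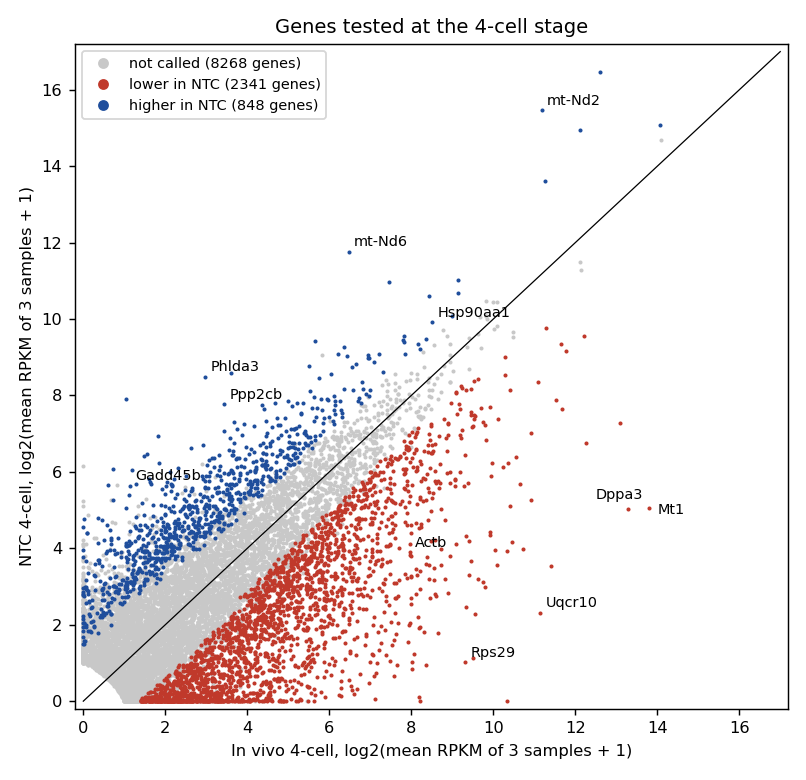
Mean of 3 NTC embryos (vertical) against mean of 3 in vivo embryos (horizontal) at the 4-cell stage, both as log2(mean RPKM + 1), with 1 point per tested gene and the line of equal levels. The 2341 genes called lower in NTC embryos (red) reach far from the line at Mt1, Dppa3 and Uqcr10, while the 848 called higher (blue) include mt-Nd2, mt-Nd6 and Phlda3.

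By the ranking for naming, the 12 genes lowest in NTC embryos were Mt1, Uqcr10, Dppa3, Rps29, Hist1h4d, Hist1h2ap, Cks2, Rpl39l, Mt2, Ndufa2, Rps21 and Rpl38. They include 4 ribosomal proteins, 2 subunits of the respiratory chain and 2 replication-dependent histones. Dppa3 had 12402, 8284 and 9154 RPKM in vivo and 47.9, 17.8 and 28.4 RPKM in NTC embryos (log2 difference -8.35, SE 0.34, adjusted p = 3.8e-06), and at most 149 RPKM in the other 57 samples. Uqcr10, a small subunit of respiratory complex III, had 2361, 2100.4 and 2288 RPKM in vivo and 2.87, 5.35 and 3.67 RPKM in NTC embryos (log2 difference -8.85, adjusted p = 1.1e-06). Rps29, a protein of the small ribosomal subunit, had 669.7, 544 and 689 RPKM in vivo and 0.907, 0.365 and 1.83 RPKM in NTC embryos. A ribosomal protein is needed in every cell, yet no other sample of the series, donor cells included, had more than 12.1 RPKM of Rps29. Cks2, a partner of cyclin-dependent kinases, had 2685, 2471 and 3058 RPKM in vivo and 13.9, 3.29 and 14.4 RPKM in NTC embryos. Hist1h4d was at 0 in all 3 NTC embryos and at 426, 223 and 244 RPKM in vivo, at least 408-fold lower when 3 reads per library are taken as the limit. Histone genes of this cluster are near-identical copies, so that reads may be split between them.

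The pattern of high values in the in vivo 4-cell embryos alone was widespread. For 987 of the 2341 genes lower in NTC embryos (42.2%), all 3 in vivo 4-cell samples lay above every one of the other 57 samples, embryos of later stages and donor cells included. This held for 265 of 477 such genes with transcripts under 1000 bases (55.6%) and for 712 of 1850 with longer transcripts (38.5%). Over all tested genes it held for 1074 (9.37%). The 57 samples include the NTC 4-cell embryos, and the 2341 genes were picked as lower in those same embryos. A higher share among them than among all tested genes was thus largely fixed in advance.

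By the same ranking, the 12 genes highest in NTC embryos were Phlda3, mt-Nd6, Rab21, Zfp52, Tceal8, Gadd45b, Ing2, Ppp2cb, mt-Nd2, Pelo, Eid1 and Ccnyl1. Genes with provisional symbols, such as Gm5662 and Gm8300 below, were left out of it whatever their difference. Phlda3, a p53 target that restrains Akt signalling, had 1.41, 19.1 and 0.0393 RPKM in vivo and 132, 478 and 467 RPKM in NTC embryos (log2 difference 6.39, SE 1.00, adjusted p = 0.0018). All NTC embryos were far above the in vivo embryos, which themselves varied widely. Rab21, a small GTPase of endosomes, had 2.71, 2.95 and 1.95 RPKM in vivo and 53.1, 125 and 186 RPKM in NTC embryos (log2 difference 4.95, SE 0.47). Ppp2cb, a catalytic subunit of protein phosphatase 2A, was tight in both groups, with 10.9, 8.05 and 10.6 RPKM in vivo and 219, 179.8 and 253 RPKM in NTC embryos (log2 difference 4.33, SE 0.28). Ing2, a reader of methylated histone H3 in a deacetylase complex, had 1.21, 1.82 and 1.30 RPKM in vivo and 29.8, 57.6 and 64.3 RPKM in NTC embryos. Its log2 difference was 4.34 (SE 0.41, adjusted p = 0.00013). Gadd45b, a stress-induced gene, had 1.26, 1.59 and 0.774 RPKM in vivo and 30.3, 83.3 and 32.6 RPKM in NTC embryos (log2 difference 4.35, SE 0.48).

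**Figure D3:**
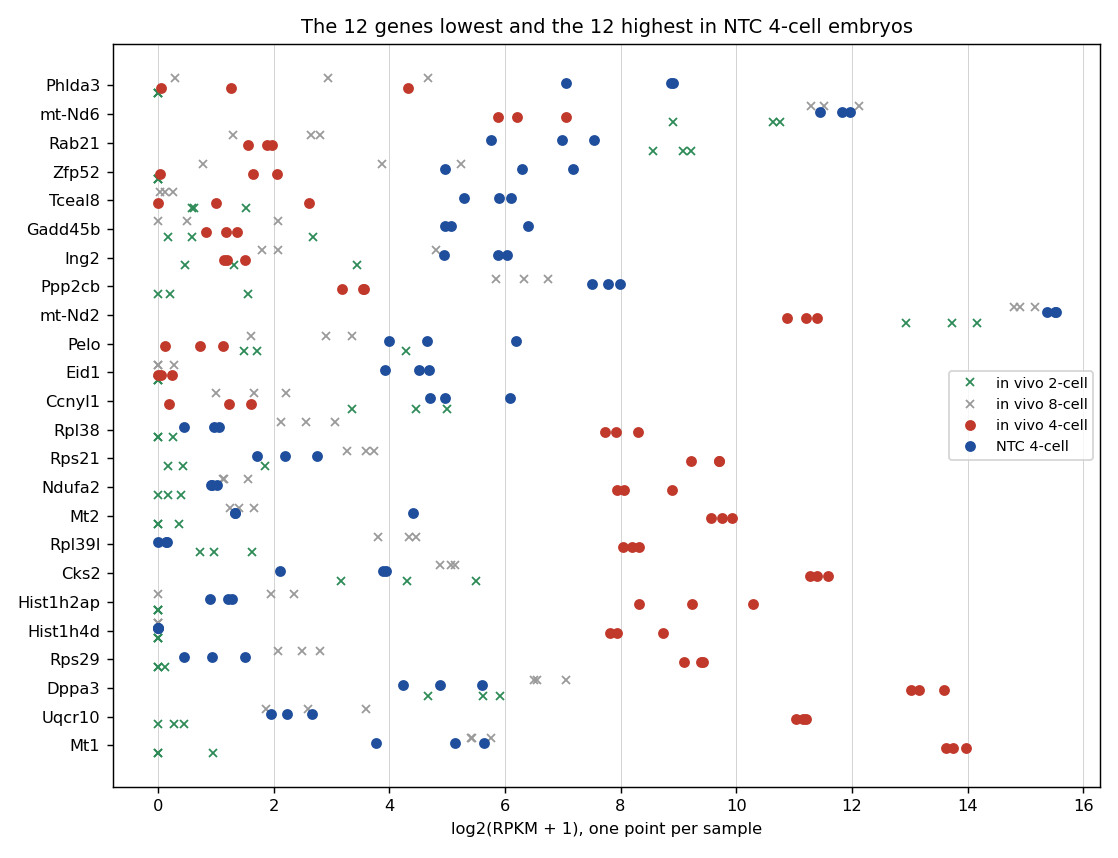
The 12 genes lowest (lower rows) and the 12 highest (upper rows) in NTC embryos among the genes ranked for naming, as log2(RPKM + 1) on the horizontal axis, with 1 point per sample. For Mt1, Uqcr10 and Dppa3 the in vivo 4-cell embryos (red) lie apart from NTC 4-cell embryos (blue) and also from in vivo 2-cell (green crosses) and 8-cell embryos (grey crosses), whose highest Mt1 value was 53.3 RPKM.

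The mitochondrial genome encodes 13 proteins of the respiratory chain and 2 ribosomal RNAs, and its transcripts rose and fell unevenly. All 15 genes were tested, 8 were higher and 3 were lower in NTC embryos, and the median difference was 1.12 (1.5 after median-ratio scaling). This median is the value of mt-Co3, an uncertain gene, and it was 1.76 without in vivo replicate 1, 2.25 without NTC replicate 2 and 0.88 without in vivo replicate 3. Among subunits of complex I, mt-Nd6 had 133, 57.9 and 72.9 RPKM in vivo and 3624, 2805 and 3982 RPKM in NTC embryos (log2 difference 5.36, SE 0.31, adjusted p = 1.1e-05). For mt-Nd2 the values were 2696, 2359.7 and 1886 RPKM in vivo and 42442, 47075 and 46893 RPKM in NTC embryos (log2 difference 4.31, SE 0.15). mt-Nd4 differed by 2.37, while mt-Nd1 (0.63, adjusted p = 0.059) and mt-Nd5 (-0.85, adjusted p = 0.063) did not pass the test. The large rRNA mt-Rnr2 differed by 3.87 (SE 0.15) and the small rRNA mt-Rnr1 by -0.59 (adjusted p = 0.045), under the fold threshold. mt-Co1 of complex IV differed by 2.83, and mt-Cytb of complex III by 1.03, which lay under the threshold at 0.88 without in vivo replicate 3 and 0.90 without NTC replicate 2. A few short genes went the other way, though mt-Nd6, at 519 bases also a short gene, was higher. mt-Atp8 had 208, 212 and 168 RPKM in vivo and 5.65, 8.28 and 8.61 RPKM in NTC embryos (log2 difference -4.54, SE 0.29), mt-Nd4l was at 0 in NTC embryos (at least 4.42-fold lower), and mt-Nd3 differed by -1.50. The last was not called after median-ratio scaling (-1.10, adjusted p = 0.13), nor without in vivo replicate 1 or 3 or any 1 of the NTC embryos (adjusted p = 0.063 to 0.15). mt-Co2 (3.57), mt-Atp6 (3.56) and mt-Co3 (1.12, not called) did not exceed 319 RPKM in any sample, and reads on nuclear copies of mitochondrial sequence could be split from them, so that their values are uncertain.

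Transcript length ran through the comparison. Among tested genes with transcripts under 500 bases the median difference was -1.64 (79 genes, 48.1% called lower and 1.27% higher). It was -1.24 at 500 to 1000 bases (624 genes), -0.81 at 1000 to 1500, -0.55 at 1500 to 2000 and -0.40 at 2000 to 3000 bases. Above this it was -0.10, -0.01 and -0.09 at 3000 to 4000, 4000 to 6000 and over 6000 bases, where 10% of 1088 genes were called lower and 5.61% higher. Transcripts of 3000 bases or more took 36.8% to 38.3% of coding reads in vivo and 47.8% to 50.8% in NTC embryos. Between the NT groups at the 4-cell stage the medians ran the other way, from 0.44 under 500 bases to -0.25 over 6000. Between NTC and in vivo 8-cell embryos they ran from -0.32 to 0.66. The share of short transcripts moved with the groups, and its part in the differences of single genes was not tested. The medians of the lists with 8 or more tested members are therefore also shown after a correction for transcript length, which was chosen after the data had been seen, in the plot of list medians.

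**Figure D4:**
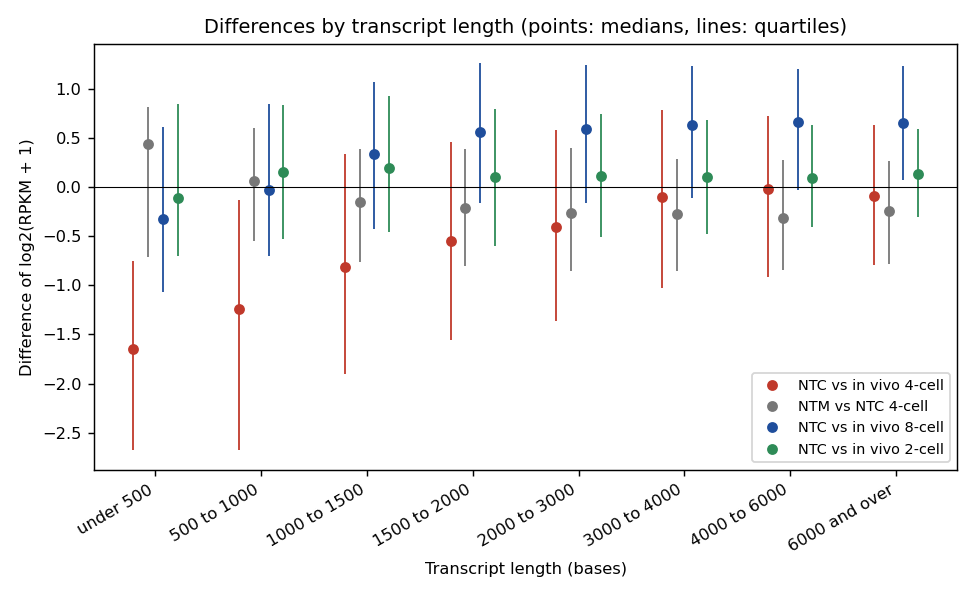
Median (points) and quartiles (lines) of the difference of log2(RPKM + 1) by transcript length in bases, for NTC against in vivo embryos at the 4-cell (red), 8-cell (blue) and 2-cell stage (green) and for NTM against NTC 4-cell embryos (grey). The red medians run from -1.64 in the shortest to -0.09 in the longest transcripts.

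Genes for protein synthesis made up the largest block of lower genes. The counts of this and the later lists stand beside 20.4% lower and 7.4% higher among all tested genes. Of 84 tested proteins of the cytosolic ribosome, 57 were lower and 3 were higher in NTC embryos, with a median of -2.57 beside -0.39 for all genes. After the correction for transcript length 41 were lower and 15 higher, with a median of -1.11. Rps21 had 837, 596 and 829 RPKM in vivo and 5.69, 2.29 and 3.61 RPKM in NTC embryos (log2 difference -7.32, SE 0.33). Rpl38 (-7.16) and Rpl28 (-6.71) differed by similar amounts, and Rpl39l, a copy of Rpl39 known from germ cells, by -8.09. In 41 of the 84 genes the in vivo 4-cell embryos lay above all other 57 samples. Proteins of the mitochondrial ribosome were lower in 40 of 76 and higher in 5 (median -1.18), led by Mrpl57 (-7.03) and Mrpl22 (-6.91). Their lower count was 26 and their higher count 3 without in vivo replicate 1, 2 or 3, and the lower count was 24 after the length correction. Of 78 genes of ribosome assembly, 31 were lower and 2 higher (median -1.0), among them Imp3 (-5.91), a part of the complex that cuts pre-rRNA. This lower count was 20 without in vivo replicate 2.

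Translation initiation factors load the first tRNA and the small ribosomal subunit on an mRNA. The study singled out 3 of their genes, Eif1ad, Eif1ax and Eif3j2. It named them for a rise between earlier stages in vivo that was reversed in both NT groups. The values here compare groups at the 4-cell stage and do not test that change between stages. In the whole list of 46 tested genes, 14 were lower and 7 higher (median -0.64), and both counts were 8 after median-ratio scaling (median -0.18). The median was 0.02 after the length correction, so that the list had no direction that held on every scale. The higher counts were 4 and 3 without in vivo replicate 1 and 3. Eif3d, which binds the mRNA cap, had 20, 29.6 and 26.1 RPKM in vivo and 0.219, 0.663 and 0.562 RPKM in NTC embryos (log2 difference -4.14, SE 0.40). Eif3k (-3.96), Eif2b4 (-3.79) and Eif3f (-3.29) were lower as well. Eif1ad, a factor related to eIF1A, was higher, with 41.1, 37.7 and 44.6 RPKM in vivo and 135, 104 and 150.5 RPKM in NTC embryos (log2 difference 1.62, SE 0.26, adjusted p = 0.0020). Eif3j2 differed by 1.02 (adjusted p = 0.045) and lost its call without in vivo replicate 1 (adjusted p = 0.096). Eif1ax, with 15.5, 14 and 48.2 RPKM in vivo and 34.4, 23.3 and 58.4 RPKM in NTC embryos, overlapped between the groups (0.69, adjusted p = 0.36).

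Nuclear genes of oxidative phosphorylation were mostly lower, while the mitochondrial genome was mixed, with 8 of 15 genes higher and 3 lower. Of 75 tested subunits and assembly factors, 51 were lower and 2 higher (median -2.21), and after the length correction 34 were lower and 6 higher (median -0.97). Ndufa2 of complex I had 472, 266 and 244 RPKM in vivo and 0.916, 0.885 and 1.02 RPKM in NTC embryos (log2 difference -7.34, SE 0.35). Atp5j (-6.13), Uqcrh (-6.11), Ndufs5 (-6.07) and Cox6b1 (-5.97), small subunits of ATP synthase and of complexes III, I and IV, were lower by similar amounts. Among 35 genes that import proteins into mitochondria, copy their DNA or shape them, 10 were lower and 3 higher (median -0.56), with 6 higher without NTC replicate 3 and 7 in each direction after median-ratio scaling. Tomm22 of the outer membrane import complex was lower (-3.70). Tfam, which packages and transcribes mitochondrial DNA, was higher, with 8.28, 10.2 and 15.9 RPKM in vivo and 68.9, 89.6 and 119 RPKM in NTC embryos (log2 difference 2.92, SE 0.35, adjusted p = 0.00050). Slirp, which stabilises mitochondrial mRNAs, was at 0 in all NTC embryos and at 13.2, 9.82 and 12.7 RPKM in vivo, at least 129-fold lower.

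RNA synthesis and splicing showed the same direction. Of 64 tested proteins of the spliceosomal snRNPs, the RNA-protein particles that cut introns, 36 were lower and none was higher (median -1.56). After median-ratio scaling 30 were lower and 5 higher, and after the length correction 24 were lower and 3 higher (median -1.01). Snrpd1, a protein of the Sm ring, had 463, 335 and 408 RPKM in vivo and 1.5, 1.92 and 3.85 RPKM in NTC embryos (log2 difference -6.93, SE 0.34). Sf3b5 of U2 (-5.01), Snrnp40 of U5 (-4.61) and the Sm proteins Snrpe (-4.40) and Snrpg (-4.34) were lower too. Of 30 subunits of RNA polymerases I to III, 15 were lower and 1 was higher (median -1.26). The lower count was 9 after the length correction (median -0.72) and 10 after median-ratio scaling. Polr1d, shared by polymerases I and III, differed by -6.42, and Polr2l, shared by all of them, by -5.98.

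**Figure D5:**
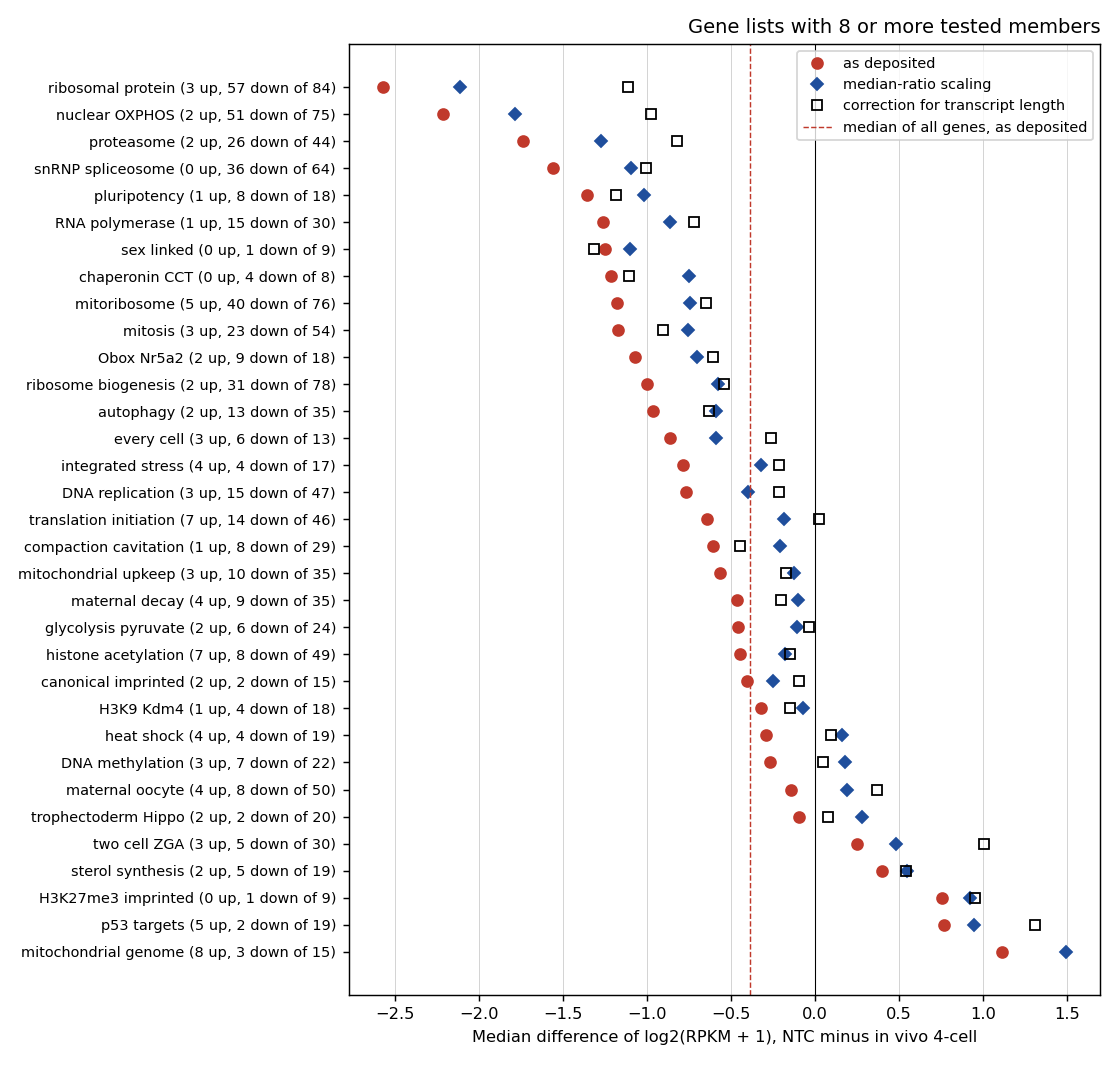
Median difference between NTC and in vivo 4-cell embryos on the log2(RPKM + 1) scale for the gene lists with 8 or more tested members, as deposited (red), after median-ratio scaling (blue) and after the correction for transcript length (open squares), with the called members in brackets. Ribosomal proteins (-2.57) and nuclear genes of oxidative phosphorylation (-2.21) lie farthest below the median of all genes (dashed line, -0.39), and the mitochondrial genome (1.12) lies farthest above it.

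Genes of protein folding and breakdown were divided. Of 44 proteasome genes, 26 were lower and 2 higher (median -1.74), and after the length correction 17 were lower and 7 higher (median -0.82). Psmb4, a part of the 20S core, had 251, 215 and 259.7 RPKM in vivo and 2.31, 1.47 and 2.05 RPKM in NTC embryos (log2 difference -6.37, SE 0.30). Of 8 subunits of the chaperonin CCT, which folds actin and tubulin, 4 were lower and none was higher, with Cct8 at -6.52. Of 19 heat shock genes, 4 were lower and 4 higher, beside 20.4% and 7.4% of all genes (median -0.29, and 0.16 after median-ratio scaling). Hspa8, the main constitutive chaperone of its family, had 791, 996 and 1137 RPKM in vivo and 27.5, 13.8 and 17 RPKM in NTC embryos (log2 difference -5.62, SE 0.30). Hsp90aa1 went the other way, with 313, 352 and 428 RPKM in vivo and 986, 946 and 965 RPKM in NTC embryos (log2 difference 1.42, SE 0.19), and Hsp90ab1 differed by -1.73. The higher heat shock genes numbered 2 without in vivo replicate 1 or 2, and the lower ones 2 without replicate 2. Of 35 autophagy genes, 13 were lower and 2 higher (median -0.97), and 8 were lower without in vivo replicate 2 or 3. The higher count was 4 without NTC replicate 2 and 1 without any other single sample. Atg101, which helps to start the autophagosome, differed by -6.32, and Map1lc3b, a protein of its membrane, by -3.43.

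Targets of p53, the transcription factor of the DNA damage response, were among the few lists whose median was above 0. Of 19 tested genes, Trp53 itself among them, 5 were higher and 2 lower (median 0.77), against 7.4% higher and 20.4% lower among all genes. The median was 0.95 after median-ratio scaling and 1.31 after the length correction. It was 0.51 without in vivo replicate 1, 0.36 without NTC replicate 2 and 1.46 without NTC replicate 1. Eda2r, a receptor of the TNF family, had 0, 0.866 and 0 RPKM in vivo and 7.10, 31.9 and 41.2 RPKM in NTC embryos (log2 difference 4.18, SE 0.67, adjusted p = 0.0021). Ccng1, a cyclin that takes part in p53 feedback, had 8.08, 11.9 and 2.16 RPKM in vivo and 32.3, 106 and 94.8 RPKM in NTC embryos (log2 difference 3.28, SE 0.62). In Phlda3, Eda2r, Ccng1 and Pmaip1, NTC replicate 1 was the lowest of the NTC embryos but above all in vivo embryos. Pmaip1 (3.68), which promotes cell death, was not called without any 1 of the in vivo embryos (adjusted p = 0.066, 0.066 and 0.071) nor without NTC replicate 3 (0.053). Zmat3 (2.12) was not called without in vivo replicate 1 or 3 (0.067 and 0.080) or NTC replicate 3 (0.053). The list's higher count was 3 without in vivo replicate 1 or 3 or NTC replicate 3, and 8 without NTC replicate 1, and its lower count was 1 without in vivo replicate 2 or 3. Trp53, the gene of p53 itself rather than a target, was 1 of the list's 2 lower members (-1.67, adjusted p = 0.015). However, its adjusted p was 0.057 among nuclear reads only, 0.062 after the length correction, and 0.058 and 0.057 without in vivo replicate 2 and 3. Cdkn1a, a well known target that arrests the cell cycle, had 49.0, 45.6 and 48.7 RPKM in vivo and 2.92, 22.0 and 38.6 RPKM in NTC embryos (-1.67, adjusted p = 0.13). Mdm2, the ubiquitin ligase of p53, did not pass the test either (0.39, adjusted p = 0.31). Cdkn1a and Mdm2 were added after their values had been seen.

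Genes of the integrated stress response, which follows amino acid shortage or misfolded proteins, had 4 higher and 4 lower of 17 (median -0.79). Among all genes 7.4% were higher and 20.4% lower. Slc3a2 (-4.10) and Trib3 (-3.29) were lower, and Asns (1.91) and Mthfd2 (1.64) were higher. There were 2 in each direction without in vivo replicate 2, 2 lower without replicate 1 and 2 higher without replicate 3. Of 24 genes of glycolysis and pyruvate use, 6 were lower and 2 higher (median -0.46), near the 20.4% and 7.4% of all genes. Gapdh was higher (2.26) and Aldoa (-2.47) and Mpc1, a carrier of pyruvate into mitochondria (-3.56), were lower. The lower count was 3 without in vivo replicate 2, and the higher count was 1 without in vivo replicate 3 or NTC replicate 3. Of 19 genes of sterol synthesis, 5 were lower and 2 higher, yet the list's median was 0.40, since most of its genes did not pass the test. Ebp (-3.98) and Msmo1 (-3.12) were lower and Pmvk (2.18) was higher, with 1 higher gene without in vivo replicate 1 or 2 or NTC replicate 3.

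Pluripotency factors, which mark cells able to form the fetus, were lower in part. Of 18 tested genes, 8 were lower, 1 was higher and 9 were not called (median -1.36, and -1.18 after the length correction), and 5 were lower without in vivo replicate 2. Nanog (chromosome 6, 122707489 to 122714633, plus strand, GRCm38), a defining factor of the epiblast, had 7.5, 13.1 and 17 RPKM in vivo and 0.0467, 0.151 and 0 RPKM in NTC embryos. The groups did not overlap (log2 difference -3.60, SE 0.46, adjusted p = 0.00068). In NTC 8-cell embryos Nanog was at 7.29, 19.9 and 7.02 RPKM, beside 20.5, 22.2 and 1.38 RPKM in vivo, and there the groups overlapped. Dppa5a, an RNA-binding protein of pluripotent cells, had 1909.8, 1380.7 and 1764 RPKM in vivo and 20, 13.9 and 10.6 RPKM in NTC embryos (log2 difference -6.77, SE 0.28). Tdgf1, a co-receptor of Nodal, differed by -4.16, Myc by -4.72 and Tbx3 by -3.25. Klf4 was higher, with 2.97, 8.61 and 8.24 RPKM in vivo and 141, 36.0 and 134 RPKM in NTC embryos (log2 difference 3.66, SE 0.59, adjusted p = 0.0021). Pou5f1 (Oct4) had 1.79, 3.28 and 3.62 RPKM in vivo and 1.58, 1.2 and 0.304 RPKM in NTC embryos, low in both groups and not past the test (-0.97, adjusted p = 0.18).

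Obox homeobox genes and Nr5a2 act on the main wave of genome activation. In this list 9 of 18 tested genes were lower and 2 higher (median -1.07), but only 3 were lower after median-ratio scaling, and 3 or 4 without in vivo replicate 1, 2 or 3 or NTC replicate 2 or 3. Obox8 had 1495, 977 and 414 RPKM in vivo and 26.9, 12.2 and 22.5 RPKM in NTC embryos (log2 difference -5.37, SE 0.48, adjusted p = 0.00010). Dppa2, which opens chromatin at the genes of the 2-cell embryo, had 793, 947 and 939 RPKM in vivo and 214, 113 and 121 RPKM in NTC embryos (log2 difference -2.63, SE 0.27). Among 20 genes of the trophectoderm and Hippo pathway, which set the outer lineage apart, 2 were lower and 2 higher (median -0.09). The higher genes were Yap1 (2.26), the pathway's co-activator, and Sav1 (3.32), a scaffold of its kinases. The lower genes Tead4 (-1.81, adjusted p = 0.037) and Tfap2c (-1.73, adjusted p = 0.047) were not called after median-ratio scaling (adjusted p = 0.11 and 0.13), and no member was lower without in vivo replicate 1, 2 or 3 or NTC replicate 2 or 3. Without NTC replicate 1 the higher count was 4. Cdx2, the defining factor of the trophectoderm, was at 0 in 5 of the 6 embryos and was not tested. Of 29 genes of compaction and cavity formation, 8 were lower and 1 was higher (median -0.61), beside 20.4% and 7.4% of all genes, with the tight junction proteins Cldn6 (-4.98) and Cldn7 (-4.66) among the lower. No member was higher without in vivo replicate 2 or 3 or any 1 of the NTC embryos.

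Maternal transcripts of the oocyte, which are largely degraded in normal embryos by the 4-cell stage, had 8 lower and 4 higher of 50 tested genes (median -0.14, and 0.19 after median-ratio scaling), near the 20.4% and 7.4% of all genes. Oog1 was higher, with 4.53, 3 and 2.54 RPKM in vivo and 52.3, 42.1 and 93.3 RPKM in NTC embryos (log2 difference 3.81, SE 0.41, adjusted p = 0.00024). H1foo, the linker histone of the oocyte, had 1.71, 0.559 and 4.85 RPKM in vivo and 8.81, 26.6 and 15.3 RPKM in NTC embryos (2.49), but was not called without in vivo replicate 1 or 2 (adjusted p = 0.064 and 0.066). Bcl2l10 (2.60) was not called without any 1 of the in vivo embryos. The higher count was 1, 1 and 2 without in vivo replicate 1, 2 and 3, while the lower count was 5, 5 and 4. In genes that degrade maternal RNA, 9 of 35 were lower and 4 higher (median -0.46), beside the same 20.4% and 7.4% of all genes. Cnot10 (-3.85), a part of the deadenylase complex, and Exosc1 (-3.85) of the RNA exosome were lower. Zfp36l2 (2.98), which brings the deadenylase to AU-rich mRNAs, and the deadenylase Cnot6l (2.34) were higher. The higher count was 2 without in vivo replicate 1, 2 or 3, and the lower count was 4 without replicate 3.

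Of 30 tested genes of the 2-cell wave of activation, 3 were higher and 5 lower, beside 7.4% and 20.4% of all genes. The median of 0.25 had no firm sign, since it was -0.76, -0.04 and -0.01 without NTC replicate 2, NTC replicate 3 and in vivo replicate 3, and 0.81 and 0.69 without NTC replicate 1 and in vivo replicate 1. Gm8300 had 4.26, 2.58 and 0.916 RPKM in vivo and 46.1, 117 and 60.8 RPKM in NTC embryos (log2 difference 4.40, SE 0.50, adjusted p = 0.00035). Spz1 (3.63) and Gm5662 (4.77) were higher as well, and Tdpoz4 (-3.57) and Tmem92 (-3.38) were lower. Several of these genes have near-identical copies, between which reads may be split. The lower count was 3 after median-ratio scaling and 2 without in vivo replicate 1.

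DNA replication and mitosis genes were lower in part. Of 47 tested replication genes 15 were lower and 3 higher (median -0.76), with 7 and 8 lower without in vivo replicate 2 and 3. Rrm2, the subunit that sets the supply of deoxynucleotides, had 212, 389.6 and 287 RPKM in vivo and 5.18, 7.49 and 7.14 RPKM in NTC embryos (log2 difference -5.26, SE 0.32). Pcna, the sliding clamp of DNA polymerase, differed by -4.85. Of 54 mitosis genes, 23 were lower and 3 higher (median -1.17, and -0.90 after the length correction). Plk1, a kinase of mitotic entry, had 106, 199.9 and 185 RPKM in vivo and 2.53, 2.92 and 2.39 RPKM in NTC embryos (log2 difference -5.46, SE 0.35). Bub3 of the spindle checkpoint (-5.60), Ccnb2 (-5.37) and Cdk1 (-4.85) were also lower. Of 57 replication histone genes, 48 to 50 were at 0 in each NTC embryo and 20 to 24 in each in vivo embryo, and their summed level was 7.32 to 24.1 RPKM in NTC and 607 to 1898 RPKM in in vivo embryos. Of the 22 that passed the filter on low values 10 were called, all lower, but genes near 0 in NTC embryos could pass it only through the in vivo group, so that this count supports nothing. The list was added after its values had been seen.

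Among 49 regulators of histone acetylation, 8 were lower and 7 higher (median -0.45), beside 20.4% and 7.4% of all genes. The class I deacetylases went apart. Hdac2 had 11.1, 13.2 and 10.7 RPKM in vivo and 146, 94.2 and 78.8 RPKM in NTC embryos (log2 difference 3.04, SE 0.32, adjusted p = 0.00024). Hdac1, the main deacetylase of the early embryo, had 267, 242 and 241 RPKM in vivo and 52.2, 32.9 and 36.2 RPKM in NTC embryos (log2 difference -2.62, SE 0.26, adjusted p = 0.00016). No sample of one group reached the other group in either gene. The acetyltransferase Ep300 was lower (-2.72) and Msl2, of a complex that acetylates histone H4, was higher (2.97). The higher count was 4 without in vivo replicate 1 or 3 or NTC replicate 1. Of 18 genes for H3K9 methylation and its removal, 4 were lower and 1 was higher (median -0.32), near the 20.4% and 7.4% of all genes. Kdm4a, a demethylase of H3K9me3, was lower, with 9.85, 10.1 and 8.89 RPKM in vivo and 0.0725, 0.642 and 0.826 RPKM in NTC embryos (log2 difference -2.85, SE 0.44, adjusted p = 0.0017). Cbx3 (-4.36), which binds H3K9me3, was lower. Of the methyltransferases of this mark, Suv39h1 was lower (-2.40) and Suv39h2 was higher (2.43, adjusted p = 0.010), though no gene of the list was called higher without in vivo replicate 3. Of 22 genes of DNA methylation and its removal, 7 were lower and 3 higher (median -0.27, and 0.18 after median-ratio scaling), with Dppa3, Apex1 (-5.35), Dnmt3l (-3.85) and Tet1 (-2.63) lower and Gadd45b and Mbd3 (2.65) higher.

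Imprinted genes are expressed from the copy of 1 parent. Of 9 tested genes whose imprint rests on H3K27me3 in the oocyte, 1 was lower and none was higher (median 0.75), the lower gene being Etv6 (-2.61), and 1 was higher without in vivo replicate 2 or NTC replicate 1 or 2. Of 15 tested genes with imprints of DNA methylation, 2 were lower and 2 higher (median -0.40). Phlda2 had 118, 39.9 and 6.39 RPKM in vivo and 0, 0 and 0.515 RPKM in NTC embryos (log2 difference -4.85, SE 0.89, adjusted p = 0.0042). Igf2r was lower (-2.80), and Mcts2 (1.67) and Zrsr1 (1.83) were higher, with 1 higher gene left without in vivo replicate 1, 2 or 3 or NTC replicate 2 or 3. Genes linked to sex differed between the in vivo embryos themselves. The Y-linked genes Ddx3y (5.46, 13.1 and 0.0118 RPKM) and Eif2s3y (21.8, 24.1 and 0.0147 RPKM) were present in in vivo replicates 1 and 2 and near 0 in replicate 3 and in all NTC embryos, whose donor cells were from females. Xist, the RNA that silences an X chromosome, was at 6.89 RPKM in in vivo replicate 3, at 0.00374 RPKM or less in replicates 1 and 2 and at 0, 0.0377 and 0 RPKM in NTC embryos. None of these passed the test in 6 samples, and of 9 tested genes of the list 1 was lower (Rlim, -1.44; list median -1.25). No gene of the list was lower without in vivo replicate 1 or 2 or NTC replicate 1 or 2, or after median-ratio scaling, and 6 were lower without in vivo replicate 3.

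The labels were checked against markers of the cells a sample could hold. Of 28 cumulus cell markers, 18 were at 0 in all in vivo and 17 in all NTC 4-cell embryos, and only 4 could be tested, of which 1 was lower (median 0.19) and, without NTC replicate 1, 1 was higher. Their summed level was 269 to 359 RPKM in vivo, 60.6 to 96.6 RPKM in NTC embryos and 2260.3 to 3113 RPKM in cumulus cells. Most of the embryos' sum was the gap junction gene Gja1, with 259, 252 and 336 RPKM in vivo and 52.4, 20.7 and 31.0 RPKM in NTC embryos, while the defining markers Fshr and Foxl2 were at 0 in all 6 embryos. Of 25 fibroblast markers the sum was 1.87 to 5.55 RPKM in vivo, 0.825 to 3.01 RPKM in NTC embryos and 12873 to 17697 RPKM in MEFs, and neither of the 2 tested members was called (median -0.09). Genes used in every cell did not move as 1 block. Of 13 such genes, 6 were lower and 3 higher (median -0.86), and without in vivo replicate 2 and 3 the lower count was 2 and 3. Actb had 229, 225 and 288 RPKM in vivo and 19.4, 15.6 and 6.66 RPKM in NTC embryos (log2 difference -4.17, SE 0.39). The related Actg1 went the other way, with 20.2, 28.9 and 28.8 RPKM in vivo and 110.3, 114 and 127 RPKM in NTC embryos (log2 difference 2.15, SE 0.27). Tubb4b (-6.58) was lower and Eef1a1 (1.94) was higher.

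A direct comparison of NTM with NTC 4-cell embryos called 0 of 10233 genes with limma, 602 of them at an unadjusted p under 0.05, while a fit over all 20 groups called 310. NTM against in vivo embryos called 2355 of 11143 genes (21.1%), 371 higher (3.33%) and 1984 lower (17.8%). Both comparisons with in vivo embryos share the same in vivo samples, so that their values are not independent. Side by side, the difference from in vivo embryos was -8.93 (NTC) and -8.83 (NTM) for Mt1, -8.35 and -8.03 for Dppa3, 6.39 and 6.12 for Phlda3, and 4.31 and 3.95 for mt-Nd2. For Ing2 it was 4.34 in NTC and 1.56 in NTM embryos (adjusted p = 0.23), for Oog1 3.81 and 0.66, and for Gadd45b 4.35 and 2.25 (adjusted p = 0.10). Ribosomal proteins had medians of -2.57 and -2.14, nuclear genes of oxidative phosphorylation of -2.21 and -2.11, and the p53 list of 0.77 and 1.39. All tested genes had medians of -0.39 and -0.69.

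The neighbouring stages gave far fewer called genes between NTC and in vivo embryos. At the 8-cell stage 139 of 9520 genes (1.46%) were called, 84 higher (0.882%) and 55 lower (0.578%), and at the 2-cell stage 18 of 11822 (0.152%), 16 higher (0.135%) and 2 lower (0.0169%). The difference at the 4-cell stage was unlike that at the 8-cell stage in 2163 of 11108 genes by an interaction term (19.5%), with 277 more positive (2.49%) and 1886 more negative (17%) at the 4-cell stage. Against the 2-cell stage this held for 1895 of 13221 genes (14.3%), 2.38% more positive and 12% more negative. Without replicate 1, 2 or 3 of every group the counts were 1031, 741 and 1079 against the 8-cell stage and 1047, 591 and 740 against the 2-cell stage. The length correction gave 1216 genes against the 8-cell stage, 566 more positive and 650 more negative. By list, 42 of 84 ribosomal proteins and 41 of 75 nuclear genes of oxidative phosphorylation were more negative at the 4-cell than at the 8-cell stage, beside 17% of all genes. In the other direction 9 of the ribosomal proteins and none of the oxidative phosphorylation genes were more positive, beside 2.49% of all genes. Phlda3 was called at both stages, with 125, 202 and 238 RPKM in NTC and 0.224, 24.6 and 6.63 RPKM in in vivo 8-cell embryos (log2 difference 4.88, adjusted p = 0.030), and its interaction term was 1.51 (adjusted p = 0.52). Of the 19 genes of the p53 list, Trp53 included, 5 were higher and none was lower at the 8-cell stage. Their median was 2.01 there, beside 0.56 for all genes. Mt1 at the 8-cell stage was at 42.2, 41.7 and 53.3 RPKM in vivo and 7.47, 15.8 and 9.69 RPKM in NTC embryos, lower in every NTC embryo without passing the test (-2.01, adjusted p = 0.066).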

How the data were processed

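Single embryos were sequenced after tailing and amplification without molecular identifiers. The authors deposited a table of RPKM values for 27238 genes in 60 samples. Their processing notes name Bowtie 0.12.2 and build mm8, and their methods describe removal of redundant reads, mapping with TopHat and counting with HTSeq. Symbols, coordinates and transcript lengths came from GENCODE M21 (GRCm38, 27013 genes matched), and promoters from RefSeq. Read numbers were worked out from the step that 1 read makes in each gene's value, so limits at 0 cover counting error only. Genes with a mean of at least 0.5 RPKM over the samples of a fit were fitted as log2(RPKM + 1) with limma 3.58.1 (R 4.3.3, eBayes with trend), without covariates, and called at a Benjamini-Hochberg adjusted p under 0.05 and a log2 difference of at least 1. A fold on this scale understates the change of low genes. Shares of reads were compared with exact permutation tests (Python 3.11.15, scipy 1.17.1). The fits were tested on simulated data.

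Named genes were the 12 highest and 12 lowest called genes without overlap and with a mean of at least 10 RPKM in the higher group, up to 6 called members of each of 35 lists with the largest differences, the mitochondrial genes, Xist, Y-linked genes, Pou5f1, Nanog, Cdx2 and 3 initiation factors. The ranking of the 12 highest and 12 lowest left out pseudogenes and provisional symbols (Gm, Rik, LOC, BC, AU, AA, AI and AF). The members and lists were chosen with earlier results of these data known. Alternatives were a pseudocount of 0.1, no filter or one of 5 RPKM, median-ratio scaling, nuclear reads only, thinned reads, one fit over 20 groups, a replicate block, no fold threshold and leaving out single samples. The correction for transcript length (a lowess curve of span 0.3 subtracted in each library, 9813 coding genes) was added after the data had been seen. No pair of replicates agreed within sampling noise.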

Additional observations from a re-analysis of the deposited data

Results flagged for a closer look

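The difference between NTC and in vivo embryos differed between the 4-cell and the 8-cell stage in 2163 genes, and between the 4-cell and the 2-cell stage in 1895 genes, by limma interaction terms (adjusted p under 0.05 and a size of at least 1 on the log2 scale). The genes below are those of the 12 highest and 12 lowest in NTC 4-cell embryos, as ranked for naming, that passed such a test. They were picked by their 4-cell difference, which is also a part of each interaction term. Large terms among them were thus largely fixed in advance. Groups of 3 samples are too small for a test of single outlying samples.

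Of the genes higher in NTC 4-cell embryos, the 4-cell difference exceeded the 8-cell difference by 5.38 for mt-Nd6, 4.40 for mt-Nd2, 4.35 for Zfp52, 4.16 for Ing2, 3.81 for Eid1 and 3.80 for Ppp2cb. It exceeded the 2-cell difference by 6.29 for mt-Nd6, 5.32 for Rab21, 4.5 for Pelo, 4.45 for mt-Nd2, 4.17 for Ccnyl1, 3.98 for Eid1 and 2.38 for Ppp2cb.

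Of the genes lower in NTC 4-cell embryos, the 4-cell less the 8-cell difference was -6.92 for Mt1, -8.61 for Uqcr10, -6.87 for Dppa3, -7.28 for Rps29, -8.16 for Hist1h4d, -7.25 for Hist1h2ap, -6.56 for Cks2, -3.97 for Rpl39l, -7.04 for Mt2, -6.73 for Ndufa2, -6.33 for Rps21 and -6.78 for Rpl38. The 4-cell less the 2-cell difference was -11.50 for Mt1, -9.15 for Uqcr10, -7.83 for Dppa3, -8.42 for Rps29, -8.16 for Hist1h4d, -8.40 for Hist1h2ap, -8.16 for Cks2, -7.39 for Rpl39l, -7.54 for Mt2, -7.34 for Ndufa2, -6.68 for Rps21 and -7.07 for Rpl38.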

How the results depend on the processing

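With single samples left out, the count of called genes ranged from 2101 to 3282 and that of higher genes from 485 to 1019. The correction for transcript length gave 1306 higher and 1454 lower genes, and 1216 genes with a different effect at the 8-cell stage. Without each replicate number in turn, the counts for the 8-cell and the 2-cell stage were 741 to 1079 and 591 to 1047. NTM against NTC embryos gave 310 genes in one fit over 20 groups. The difference in the mitochondrial share was 12.8 percentage points for protein genes only. With a replicate block 2882 genes were called, and 1918 and 1644 for the 8-cell and 2-cell stages. The numbers do not pair the samples, since the deviations of same-numbered samples correlated at -0.025, -0.0056 and -0.0073, and the block was not used. Of 195 called genes named, 160 kept their call and direction and 0 reversed under the other scalings, the pseudocount, the fit over 20 groups, the block, the length correction and the omission of single samples, as far as a gene had a value there. One read on a short transcript limits what a value of 0 can mean.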
